A study of Homo sapiens with 4 samples.

Results

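The 9 genes described here encode leukocyte integrin chains and the surface molecules they or the selectins bind: ITGA4, ITGB1, ITGB7, ITGAL, ITGB2, ICAM2, ICAM3, SELPLG and CD44. They were taken by name, and every probe set whose platform annotation gave exactly 1 gene symbol from this list was kept, which gave 35 of the 54613 probe sets on the array. At least 1 probe set stood for each of the 9 genes, among 19775 genes with a probe set of a single symbol. Expression was measured once in each of 4 cell lines. Jeko-1/R is a rituximab-resistant subline of Jeko-1, a mantle cell lymphoma line, and Raji/R is a rituximab-resistant subline of Raji, a Burkitt lymphoma line. The labels describe the resistant cells as treated with rituximab, an antibody against the B-cell protein CD20, and the parental cells as untreated. The sources used here do not say whether a subline was a single clone or whether antibody was present when RNA was taken. Each group was 1 array, so precision is limited by their number. No label names separate cultures. The p-values below rest on the spread among these 4 arrays and on a variance shared over all fitted probe sets.

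Integrins are pairs of an alpha and a beta chain that hold lymphocytes to other cells and to matrix, and they switch to a high-affinity form when signals inside the cell recruit talin and kindlin to the beta chain. ITGA4 pairs with ITGB1 to form the receptor VLA-4, which binds VCAM1 and fibronectin, or with ITGB7 to form the gut-homing receptor of MADCAM1. ITGAL pairs with ITGB2 to form LFA-1, whose ligands include ICAM1, ICAM2 and ICAM3. SELPLG encodes PSGL-1, the ligand of P-selectin, and CD44 encodes the main receptor of hyaluronan.

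On these arrays the line of origin separated the genes into opposite groups. By brightest probe set, ITGA4, ITGB1, ICAM3 and CD44 were higher in the Jeko-1 lines. By the same measure ITGAL, ITGB2, ITGB7 and SELPLG were lower in the Jeko-1 lines than in the Raji lines. For CD44 the call rested on 1 of its 8 fitted probe sets. ICAM2 was far above the floor on all 4 arrays. No member passed the test between resistant and parental cells, and neither did any of the 29669 fitted probe sets. No member changed 2-fold by its brightest probe set in either subline. Over all genes, 0.38% were at least 2-fold higher and 0.595% lower in Jeko-1/R, and 7.01% and 2.64% in Raji/R. The parental and the resistant arrays gave the same direction between the lines for 9 of 9 genes, ICAM2 included, which was not called. Each resistant line is a subline of its parent, so these arrays are not independent repeats. The share of all genes with the same direction was not counted.

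The values are MAS5 signals, a scaled brightness for each probe set, and levels of different genes are not compared because signals depend on the probes. A floor was set at the median of all values, a signal of 77.5 or 6.28 on the log2 scale, and lower values were raised to it before ratios were taken. Where 1 side of a ratio was raised in this way the true ratio is at least as large, and the text says "at least". The trimmed mean signal was between 494 and 497 on the 4 arrays. On the Raji/R array 55.6% of all probe sets reached the floor, against 48.0% to 48.3% on the other arrays. B-cell markers listed as a check of identity reached the floor for 7 of 8 genes on each Jeko-1 array and for 8 of 8 on each Raji array. CCND1 and SOX11 reached it on the Jeko-1 arrays, and BCL6, LMO2 and SERPINA9 were brighter on the Raji arrays. Other markers went the other way, since CD5 was below the floor on both Jeko-1 arrays with a signal of 121 in Raji/R, and MME was at 187 in Jeko-1/R and 201 in Jeko-1 against 113 in Raji/R and 223 in Raji. Of 9 myeloid markers, 1 on Jeko-1/R, 0 on Jeko-1, 5 on Raji/R and 2 on Raji reached the floor, and their summed signals were 234, 247, 1212 and 662 in that order. The T-cell genes CD3D, CD3E and CD3G had signals of at most 180 on all arrays, but CD247 had 2212 in Jeko-1/R and 2185 in Jeko-1. LCK had 3425 in Raji/R and 3135 in Raji, and the NK-cell marker NKG7 had 1749 in Raji/R and 883 in Raji. Of 10 T-cell markers 3, 2, 5 and 4 reached the floor in the same order, of 7 NK-cell markers 1, 1, 4 and 3, and of 10 epithelial and stromal markers 4, 5, 7 and 6. CD3E and CD14 were below it on all arrays, but other genes of their lists were above it. CD3D had a signal of 180 in Raji/R, CD4 of 195 in Raji and ITGAM of 314 in Raji. The stromal gene COL1A1 had signals of 1465 in Raji/R and 1916 in Raji. The part of other cell types in the results was not tested.

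The promoters of ITGA4 and ITGB7 are shown because these chains can pair with each other and differed in opposite directions between the lines. The set of promoter sequences used here, on assembly GRCh38.p14, held entries for 5 of the 9 members, namely ITGA4, ITGB1, ITGB7, ICAM3 and CD44. The 250 bases before the annotated start site are printed 5′ to 3′ on the strand of the gene, and capitals mark a match to a searched motif. The ITGA4 window lies at chr2:181457136-181457385 on the plus strand and the ITGB7 window at chr12:53207252-53207501 on the minus strand.
ITGA4: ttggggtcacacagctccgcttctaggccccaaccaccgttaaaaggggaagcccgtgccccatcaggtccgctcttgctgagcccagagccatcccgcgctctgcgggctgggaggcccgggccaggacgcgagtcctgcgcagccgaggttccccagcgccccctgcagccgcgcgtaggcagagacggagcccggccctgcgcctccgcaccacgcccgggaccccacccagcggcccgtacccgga
ITGB7: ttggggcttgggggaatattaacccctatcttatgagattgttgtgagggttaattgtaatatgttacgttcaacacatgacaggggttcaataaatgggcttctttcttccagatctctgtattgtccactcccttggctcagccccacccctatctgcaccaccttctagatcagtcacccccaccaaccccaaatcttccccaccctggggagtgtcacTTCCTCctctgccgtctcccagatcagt
The motifs searched, on both strands and with 0 overlapping matches, were GAGGAA, the core of the PU box of ETS factors, and TGTGGT, the core bound by RUNX factors. They were chosen with the expression values known. ITGB7 held 1 match to GAGGAA, on the reverse strand, beginning 28 bases before the start site. ITGA4 held 0 matches to either motif. Among 8 windows of the 5 members with an entry, 3 held GAGGAA and 0 held TGTGGT, against 23.6% and 10.98% of all 35116 promoter windows of this length. A match of letters is a description and says nothing of whether a factor binds.

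The first comparison set the Jeko-1 lines against the Raji lines, using both states of each. Of the 35 member probe sets, 27 reached the floor on at least 1 array and entered the fit, and the other 8 stayed below it on all 4 arrays. These 8 were 5 probe sets of CD44, 2 of ITGB1 and 1 of SELPLG. In limma, with cell line and state as terms, 8 member probe sets were higher and 7 were lower in the Jeko-1 lines at an adjusted p under 0.05. Among all fitted probe sets, 25.2% of 29669 probe sets were called higher and 24.5% lower in the Jeko-1 lines. By the brightest probe set of each gene, 4 of 9 members were called higher and 4 of 9 lower in the Jeko-1 lines, against 22.9% and 29.5% of 15575 genes. With no filter on low values 1 of 9 members, ICAM3, was called, against 2.94% of 41091 probe sets. A gap of at least 4-fold, a size added after the values were seen, was reached by 3 members that were higher and 4 that were lower in the Jeko-1 lines, against 10.7% and 7.4% of all genes. The median absolute difference was 2.73 on the log2 scale for the 9 members and 0.85 for all genes. The members were chosen with earlier results of these data known, so these counts and medians describe the list and do not test it. The spread in this fit comes only in part from how far the gap between lines differed between states, with 1 residual degree of freedom. The larger part is a prior that eBayes takes from all fitted probe sets, with 5.95 degrees of freedom and an SD of 0.268. Neither part comes from repeat cultures. An exact permutation test of 2 arrays against 2 has 0.333 as its smallest two-sided p.

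**Figure D1:**
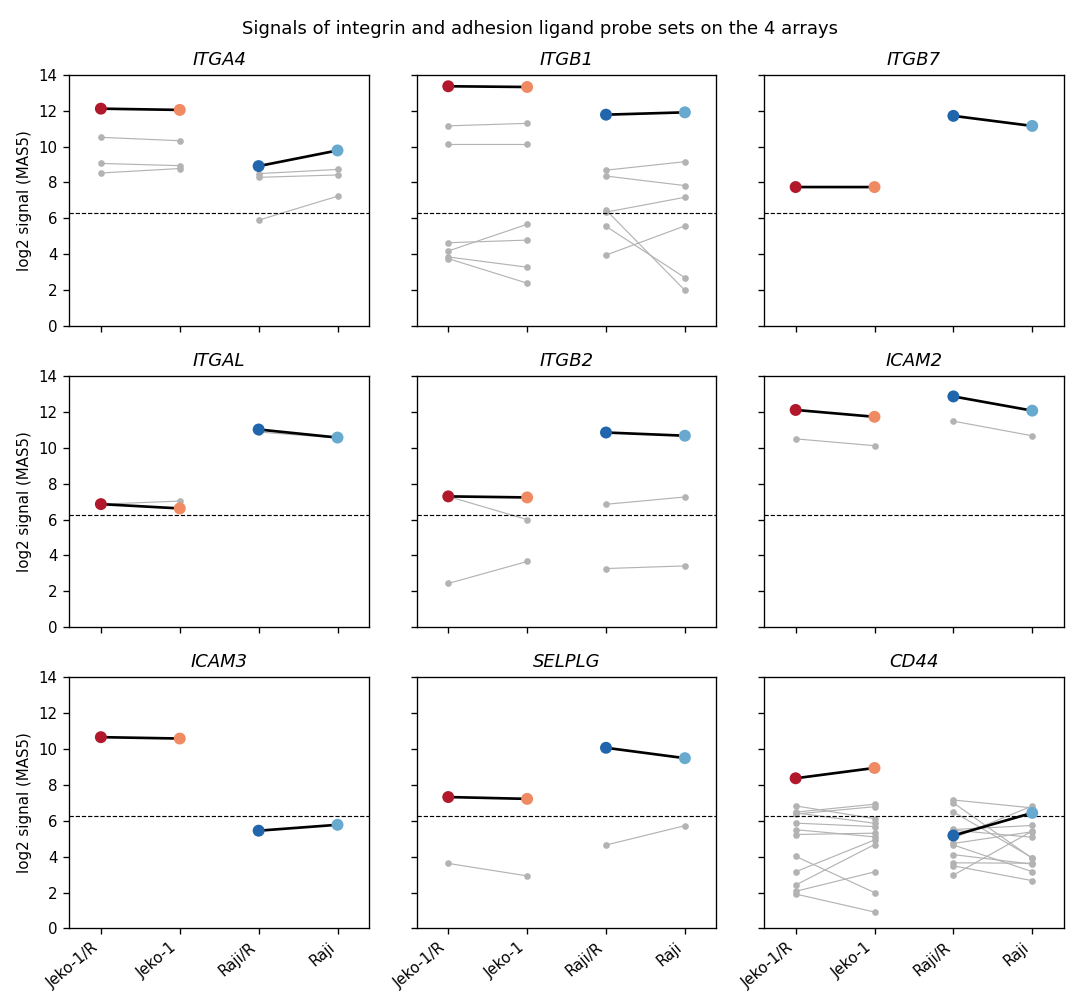
Log2 MAS5 signal (vertical axis) of every member probe set on each array (horizontal axis), with 1 panel per gene. Large points joined by black lines are the brightest probe set, small grey points the others, and the dashed line is the floor at 6.28. By brightest probe set, ITGA4, ITGB1, ICAM3 and CD44 lie higher on the Jeko-1 arrays, and ITGB7, ITGAL, ITGB2 and SELPLG lie higher on the Raji arrays.

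ITGA4, the alpha 4 chain, was read by 213416_at as its brightest probe set and had signals of 4427 in Jeko-1/R and 4215 in Jeko-1, against 481 in Raji/R and 881 in Raji. Both Jeko-1 arrays were above both Raji arrays, and Raji/R was the lowest of the 4. The limma difference of the lines was 2.73 on the log2 scale (SE 0.31, 95% CI 2.01 to 3.45, adjusted p = 0.000415), a 6.64-fold higher signal in the Jeko-1 lines. Its 3 other probe sets pointed the same way, with log2 differences of 1.81, 1.90 and 0.65. The smallest of these did not pass the test (adjusted p = 0.0712), and the value of 1.90 is a lower bound since Raji/R was below the floor.

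ITGB1, the beta 1 chain that many alpha chains share (211945_s_at), had signals of 10519 in Jeko-1/R and 10226 in Jeko-1, against 3508 in Raji/R and 3839 in Raji. The groups did not overlap, but the gap was narrower than that of ITGA4. The log2 difference was 1.50 (SE 0.25, 95% CI 0.91 to 2.09, adjusted p = 0.00234 in limma), or 2.83-fold. Probe sets 1553678_a_at and 1553530_a_at gave larger differences of 2.30 and 2.03. The remaining 2 fitted probe sets, 216178_x_at and 216190_x_at, never exceeded a signal of 144 and gave differences of -0.48 and -0.09 that were not called. Suffixes x_at and s_at mark probe sets that may also bind other transcripts.

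ITGB7, the other partner of the alpha 4 chain, went against ITGA4. Its single probe set, 205718_at, gave signals of 214 in both Jeko-1/R and Jeko-1, against 3352 in Raji/R and 2271 in Raji. The log2 difference was -3.69 (SE 0.27, 95% CI -4.33 to -3.05, adjusted p = 9.19e-05 in limma), so the signal was 12.9-fold higher in the Raji lines. The coefficients of ITGA4 and ITGB7 were thus 6.42 apart on the log2 scale, whereas those of ITGA4 and ITGB1 were 1.23 apart. These distances describe how the gaps between lines differed among chains and were not tested.

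LFA-1 was represented by both of its chains, which were both lower in the Jeko-1 lines. ITGAL, the alpha L chain (1554240_a_at), had signals of 116 in Jeko-1/R and 98.4 in Jeko-1, against 2079 in Raji/R and 1523 in Raji. The Jeko-1 values lay just above the floor, and the groups did not overlap. The log2 difference was -4.06 (SE 0.25, 95% CI -4.65 to -3.46, adjusted p = 6.11e-05 in limma), or 16.6-fold higher in the Raji lines. The other ITGAL probe set gave -3.77.

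ITGB2, the beta 2 chain shared by LFA-1 and the myeloid integrins (202803_s_at), had signals of 157 in Jeko-1/R and 151 in Jeko-1, against 1851 in Raji/R and 1635 in Raji. The log2 difference was -3.50 (SE 0.25, 95% CI -4.09 to -2.91, adjusted p = 8.67e-05 in limma), an 11.3-fold higher signal in the Raji lines. The chains of LFA-1 had coefficients 0.55 apart on the log2 scale. Of the 2 other ITGB2 probe sets, 1555349_a_at was also lower in the Jeko-1 lines, by at least 1.72-fold, with both Jeko-1 arrays below the floor (adjusted p = 0.0417). The dim 236988_x_at pointed the other way at 0.51, with a signal of 156 in Jeko-1/R and 9.64 to 63.9 on the other arrays (adjusted p = 0.226).

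The intercellular adhesion molecules ICAM2 and ICAM3, which are both ligands of LFA-1, differed from each other. ICAM3 (204949_at) had signals of 1625 in Jeko-1/R and 1541 in Jeko-1, against 43.8 in Raji/R and 55.0 in Raji. Both Raji arrays were below the floor, so ICAM3 was at least 20.4-fold higher in the Jeko-1 lines. The log2 difference against the floor was 4.35 (SE 0.25, 95% CI 3.76 to 4.94, adjusted p = 5.21e-05 in limma), and 1 probe set read the gene. ICAM2 (213620_s_at) had signals of 4426 in Jeko-1/R and 3398 in Jeko-1, against 7464 in Raji/R and 4309 in Raji. The order was Raji/R, Jeko-1/R, Raji and Jeko-1, so the lines overlapped. The log2 difference of -0.55 did not pass the test (95% CI -1.16 to 0.07, adjusted p = 0.125 in limma). The other ICAM2 probe set gave -0.77 and passed narrowly (adjusted p = 0.0446).

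SELPLG (209879_at) had signals of 161 in Jeko-1/R and 150 in Jeko-1, against 1078 in Raji/R and 722 in Raji. The log2 difference was -2.51 (SE 0.26, 95% CI -3.13 to -1.88, adjusted p = 0.000327 in limma), a 5.69-fold higher signal in the Raji lines. The other SELPLG probe set did not exceed 53.1 on any array.

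CD44 was called by 1 of its 8 fitted probe sets. Its brightest probe set, 212063_at, gave signals of 332 in Jeko-1/R and 495 in Jeko-1, against 36.3 in Raji/R and 87.1 in Raji. The Jeko-1 lines were at least 4.93-fold higher, with a log2 difference of 2.30 (SE 0.26, 95% CI 1.69 to 2.92, adjusted p = 0.000428 in limma). The 7 other fitted CD44 probe sets reached at most 143 and gave log2 differences between -0.67 and 0.43, and none of them was called. With the mean of all fitted CD44 probe sets the difference was 0.25 (adjusted p = 0.353), and with a floor at the 75th percentile instead it was 0.21 (adjusted p = 0.323). The CD44 difference was therefore carried by 1 probe set.

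**Figure D2:**
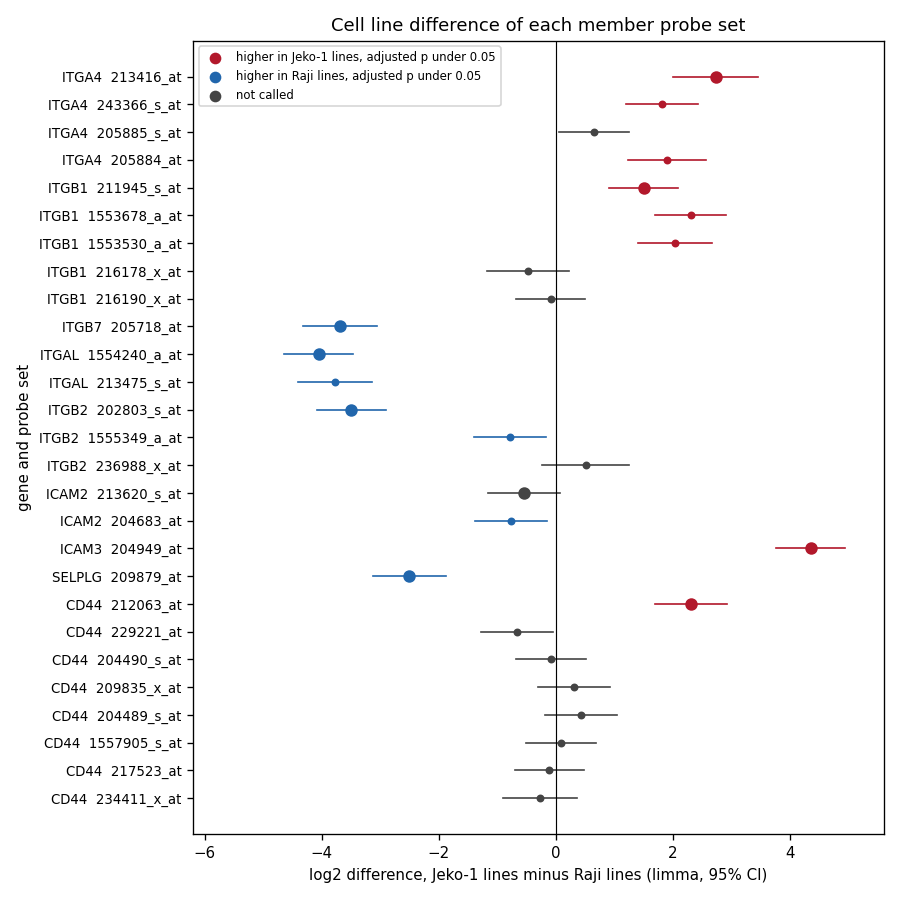
Log2 difference of the Jeko-1 lines minus the Raji lines (horizontal axis) with its 95% confidence interval from limma, for each of the 27 fitted member probe sets (vertical axis). Large points are the brightest probe set of a gene and colours give the call, with values from 4.35 for ICAM3 to -4.06 for ITGAL.

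The gap between the lines was set beside itself in each state. From the resistant arrays alone the log2 difference of ITGA4 was 3.20, and from the parental arrays alone it was 2.26. For ITGB7 these values were -3.97 and -3.41, for SELPLG -2.75 and -2.27, and for ICAM2 -0.75 and -0.34. For ITGAL they were -4.16 and -3.95, for ITGB2 -3.56 and -3.44, for ITGB1 1.58 and 1.41, and for ICAM3, against the floor, 4.39 and 4.31. In CD44 the gap was 2.10 between the resistant lines and 2.51 between the parental lines. How often the gap was wider between the resistant lines was not counted over all genes. Whether resistance altered the gap could not be tested, because a term for it leaves no residual degree of freedom.

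The second comparison set the resistant lines against their parents. In the same limma fit 0 of the 27 member probe sets were called, against 0% of all 29669 fitted probe sets. At an unadjusted p under 0.05, 674 of all fitted probe sets passed, and 1 of them was a member, the dim CD44 probe set 204490_s_at. The adjusted p of the members lay between 0.982 and 0.999.

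Within the Jeko-1 pair the members differed little. By brightest probe set 0 of 9 members were at least 2-fold higher or lower in Jeko-1/R, where 0.38% of 11588 genes were higher and 0.595% lower. Their median absolute log2 ratio was 0.08, against 0.15 for all genes of the pair. The log2 ratios of ITGA4, ITGB1, ITGB7, ITGB2 and ICAM3 lay between 0.002 and 0.08. The SD between probe sets of a gene was 0.27 in this pair over 5850 genes, and the share of all genes beyond it was not counted. The members beyond it were ICAM2 at 0.38, with 0.38 from its other probe set, and CD44 at -0.58. CD44 was the member outside the central 90% of all genes (-0.49 to 0.46), and its other fitted probe sets ranged from -0.44 to 0.56. A single dim probe set, 236988_x_at of ITGB2, reached 2-fold, at least 2.02-fold higher in Jeko-1/R.

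Within the Raji pair the ratios were larger, as they were for all genes. Again 0 of 9 members reached 2-fold in Raji/R, where 7.01% of 14642 genes were higher by that much and 2.64% lower. For ICAM3 this was fixed beforehand, since both Raji arrays were below the floor. With quantile normalization of the arrays these counts over all genes were 847 higher and 735 lower, against 1026 and 386 as scaled by the authors, and members past 2-fold numbered 0 under both. The median absolute log2 ratio was 0.45 for the members and 0.36 for all genes of the pair. The sets are unlike, since ICAM3 entered the member value as 0. Genes below the floor on both Raji arrays were left out of the value for all genes.

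ITGA4 had the lowest ratio in Raji/R, -0.87 on the log2 scale, which lay outside the central 90% of all genes (-0.81 to 1.13). Its other probe sets gave -0.23 and -0.13, and -0.95 as a bound with Raji/R below the floor. All 4 ITGA4 probe sets were thus lower in Raji/R than in Raji, by amounts that differed among them. ITGB1, its partner, showed no common direction, with -0.13 from the brightest probe set, -0.47 from 1553678_a_at and 0.53 from 1553530_a_at.

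ICAM2 had the highest ratio in Raji/R at 0.79, and its other probe set gave 0.82. It was the member with the highest ratio in Jeko-1/R too, and its state coefficient over both lines was 0.59 (95% CI -0.03 to 1.20, adjusted p = 0.982 in limma). ITGB7 stood at 0.56, SELPLG at 0.58, ITGAL at 0.45 and ITGB2 at 0.18 in Raji/R. The SD between probe sets of a gene was 0.556 in this pair over 6850 genes. The ratios of ITGA4 and ICAM2 lay beyond it, and those of SELPLG (0.579) and ITGB7 (0.562) were about its size. The share of all genes beyond it was not counted. ICAM3 was below the floor on both arrays of the pair and has no ratio. CD44 was below the floor in Raji/R, with a ratio of -0.17 as a bound.

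**Figure D3:**
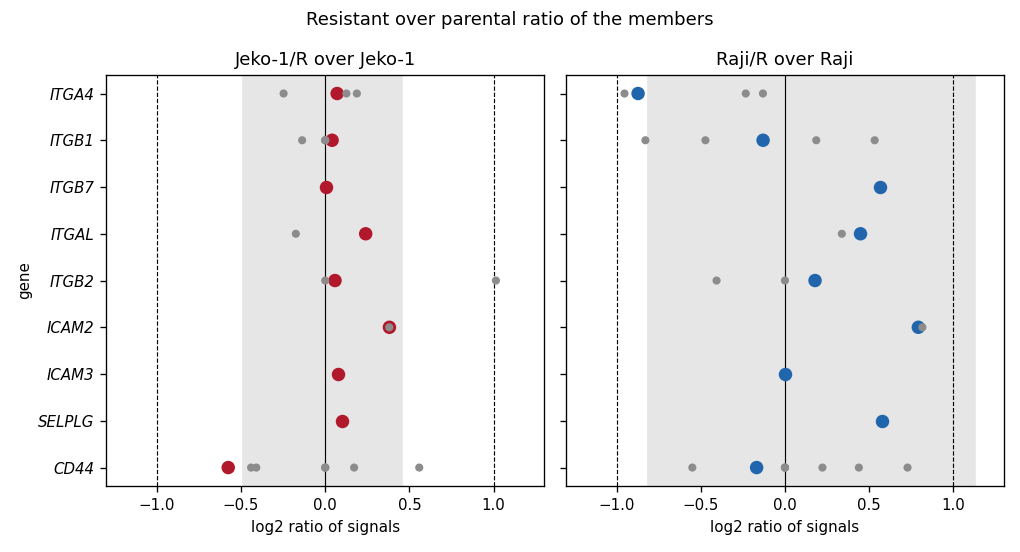
Log2 ratio of resistant over parental signal (horizontal axis) for each member (vertical axis) in the Jeko-1 pair on the left and the Raji pair on the right. Large coloured points are the brightest probe set, small grey points the others, grey bands the central 90% of all genes and dashed lines 2-fold. By brightest probe set no member passes 2-fold, and ITGA4 in Raji/R (-0.87) and CD44 in Jeko-1/R (-0.58) lie outside the bands, while ICAM3 is drawn at 0 in the Raji pair because both arrays were below the floor.

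Genes that act with the members were taken from 7 lists and compared between the lines by their brightest probe set. Each count is read beside the 22.9% of all genes called higher and the 29.5% called lower in the Jeko-1 lines, with no test of the list. Among genes of inside-out integrin activation, 3 of 25 fitted genes were higher and 11 lower in the Jeko-1 lines, with a median log2 difference of -0.59 against -0.29 for all genes. FERMT3, the kindlin of blood cells, had signals of 432 in Jeko-1/R and 360 in Jeko-1, against 3459 in Raji/R and 3086 in Raji, and was 8.29-fold higher in the Raji lines (adjusted p = 0.000127 in limma). TLN2, a talin, was at least 5.77-fold higher in the Raji lines. SLC3A2, the CD98 heavy chain that associates with beta chains, and SHARPIN, an inhibitor of integrin activation, were 3.86-fold and 3.83-fold higher there. The list thus held an activator and an inhibitor that differed in the same direction.

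Among genes of focal adhesion and signalling from integrins, 1 of 28 was higher and 17 were lower in the Jeko-1 lines, against 22.9% and 29.5% of all genes, with a median of -0.99. The focal adhesion kinase gene PTK2 was at least 12.1-fold higher in the Raji lines, although its 3 other fitted probe sets ranged from -3.54 to -0.09 on the log2 scale. Its relative PTK2B was 4.36-fold higher and the adaptor PXN at least 4.06-fold higher in the Raji lines. In the list of other integrin chains, 0 of 17 fitted genes were higher and 7 were lower in the Jeko-1 lines. These chains were dim, and ITGA6 and ITGAM, which were at least 4.69-fold and 3.82-fold higher in the Raji lines, had signals of at most 430 and 314. The other fitted ITGAM probe set gave only -0.37 on the log2 scale.

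Among ligands of leukocyte integrins and selectins, 3 of 14 were higher and 4 lower in the Jeko-1 lines, close to the shares of all genes (22.9% and 29.5%). ICAM1, the main ligand of LFA-1, had signals of 204 in Jeko-1/R and 198 in Jeko-1, against 5747 in Raji/R and 4851 in Raji. It was 26.3-fold higher in the Raji lines (log2 difference -4.72, 95% CI -5.31 to -4.12, adjusted p = 4.75e-05 in limma), and its other probe sets gave -4.13 and -1.60. The sialomucin PODXL was at least 29.6-fold higher in the Raji lines. SPP1, which encodes osteopontin, a ligand of alpha 4 and other integrins, had signals of 1838 in Jeko-1/R and 3613 in Jeko-1, against 66.9 in Raji/R and 9.02 in Raji, at least 33.3-fold higher in the Jeko-1 lines. JAM3 was 10.6-fold higher in the Jeko-1 lines, but its 2 other fitted probe sets gave only 0.11 and 0.17 on the log2 scale.

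The partners of SELPLG and CD44 included genes on both sides. Of 18 glycosylation genes, 8 were higher and 7 lower in the Jeko-1 lines, against 22.9% and 29.5% of all genes. FUT4, a fucosyltransferase that builds selectin ligands, was at least 8.17-fold higher in the Jeko-1 lines, where SELPLG itself was lower. The other fitted FUT4 probe set gave a smaller log2 difference of 1.07. The core-branching enzyme GCNT1 was at least 5.52-fold and the initiating enzyme GALNT1 4.46-fold higher in the Jeko-1 lines. The 4 other GALNT1 probe sets gave differences from -0.56 to 2.68 on the log2 scale. The sulfotransferase CHST4 was at least 4.56-fold higher in the Raji lines. Of 18 CD44 partner genes, 4 were higher and 6 lower in the Jeko-1 lines. RDX, encoding radixin, which ties membrane proteins such as CD44 to actin, had signals of 9328 in Jeko-1/R and 9501 in Jeko-1, against 43.2 in Raji/R and 26.3 in Raji. Its other probe sets gave smaller log2 differences of 2.03 to 3.16. The hyaluronan receptor gene HMMR was 10.3-fold higher in the Jeko-1 lines and the gelatinase gene MMP9 was 8.45-fold higher in the Raji lines. The splicing factor SRSF1 was 4.86-fold higher in the Jeko-1 lines, with other probe sets from -0.05 to 3.38.

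Of 26 other lymphocyte adhesion molecules, 6 were higher and 14 lower in the Jeko-1 lines, against 22.9% and 29.5% of all genes. By brightest probe set, CD24, a small glycosylated surface protein, and the tetraspanin CD9, which associates with beta 1 integrins, were high in the Jeko-1 lines and below the floor on both Raji arrays. In the Jeko-1 lines CD24 was higher by at least 180-fold and CD9 by at least 32.4-fold by these probe sets. The 5 other fitted CD24 probe sets gave log2 differences from 2.45 to 7.05, and the second CD9 probe set gave -0.24. The tetraspanin CD82 was 46.6-fold higher in the Raji lines, with signals of 133 in Jeko-1/R and 129 in Jeko-1, against 5935 in Raji/R and 6246 in Raji. The B-cell lectin CD22 was 14.8-fold higher in the Raji lines.

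**Figure D4:**
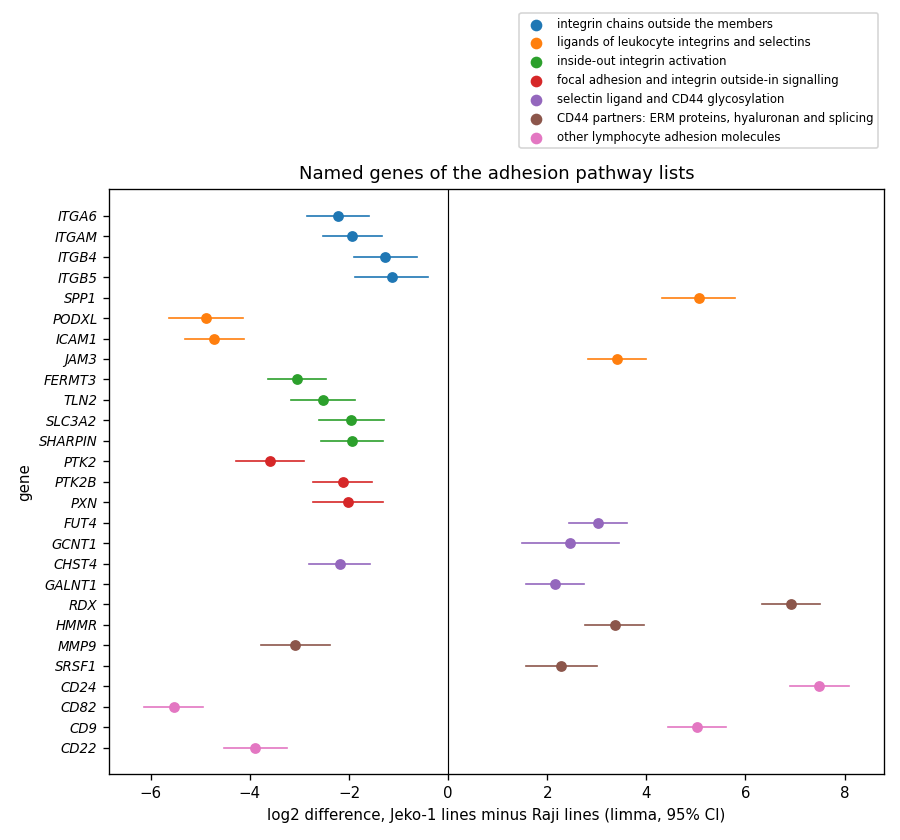
Log2 difference of the Jeko-1 lines minus the Raji lines (horizontal axis) with its 95% confidence interval from limma, for the up to 4 called genes with the largest difference in each pathway list, apart from 1 gene not reported here (vertical axis, coloured by list). Named genes of integrin activation (FERMT3, TLN2, SLC3A2 and SHARPIN) and of focal adhesion (PTK2, PTK2B and PXN) lie below 0, higher in the Raji lines, and the other lists, apart from the integrin chains, hold genes on both sides.

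Between resistant and parental cells the list genes past 2-fold were counted without a test. In Jeko-1/R 1 of 108 genes was past it (0.93%), PODXL, which was at least 2.04-fold lower. Among all genes of that pair 0.595% were lower by that much and 0.38% higher. In Raji/R 14 of 139 list genes were higher and 3 lower (10.1% and 2.16%), against 7.01% and 2.64% of all genes. They included the integrin chains ITGA11 (at least 3.54-fold higher), ITGA5 (2.44-fold higher), ITGA2B (2.36-fold higher) and ITGB5 (just past 2-fold), with signals in Raji/R between 213 and 277. The other ITGB5 probe set gave -0.21 on the log2 scale. ITGA7 was 2.35-fold lower. FERMT1 was 2.25-fold and ST3GAL4 2.31-fold higher in Raji/R, while the other fitted FERMT1 probe set gave a log2 ratio of 0. SELP, FERMT2, SKAP1, HAS2 and NCAM1 were below the floor in Raji and higher in Raji/R by at least 1.11 to 1.38 on the log2 scale, with signals in Raji/R between 167 and 202. PECAM1, an adhesion molecule of blood and endothelial cells, was 2.22-fold higher in Raji/R, while its other probe sets ranged from -0.18 to 1.33 on the log2 scale. The actin-associated gene ZYX was 2.82-fold higher by 1 probe set and 0.005 on the log2 scale by the other. GCNT1 was at least 2.21-fold higher by its brightest probe set and -1.11 on the log2 scale by the other. These low-signal ratios stand beside the higher share of probe sets above the floor on the Raji/R array, and the part of that shift in them was not tested.

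The genes most like the members with the widest range were found by the root mean square distance of their centred log2 values over the 4 arrays. For ITGAL they were ARL2, NLRP11 and CYSTM1, at distances of 0.10 to 0.11. For ICAM3 they were TRPM4, CHD9 and CTNNA1 at 0.03 to 0.04, and for ITGB7 they were CYC1, ASMTL and MCRIP2 at 0.05 to 0.07. With 4 arrays this likeness rests mostly on the gap between the lines.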

How the data were processed

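The authors deposited log2 MAS5 signals, 1 value for each of 54613 probe sets on each of 4 arrays, and MAS5 is named in the submitters' processing notes, its version not given in the sources used here. Total RNA was extracted with Trizol and 6 µg was labelled with biotin, per the labels' protocols. The values themselves show the log base, and no detection calls entered the work. The platform annotation gave 41091 probe sets a single symbol, 1801 several and 11721 none.

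From these values a floor at the pooled median was set, and probe sets with at least 1 array at or above it entered 1 limma fit (limma 3.58.1, R 4.3.3) with cell line and state as terms, eBayes and Benjamini-Hochberg adjustment over 29669 probe sets, two-sided. The line term pairs each subline with its parent. The probe set of highest mean signal stood for its gene. Within a line there was 1 array per group, so 2-fold ratios are given without a test. Named genes were the members, the up to 4 called genes with the largest line difference in each list, and up to 4 list genes past 2-fold in each subline. Results for 2 genes of the focal adhesion list that this rule names are not reported here. The members, lists and markers were chosen with earlier results of these data known. Tables and figures were made with pandas 2.3.3, numpy 2.4.6 and matplotlib 3.10.9 in Python 3.11.15.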

Additional observations from a re-analysis of the deposited data

How the results depend on the processing

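The number of members called between the lines was 8 of 9 under the settings reported, and between 7 and 9 with quantile normalization, a higher floor (the 75th percentile, a signal of 367), a pseudocount of 32, a trended variance prior, the mean of all probe sets, no x_at and s_at probe sets, and cell line as the only term. Of all probe sets or gene means fitted, 49.7% were called under the settings reported and 68.4% with the higher floor. Under the others of these settings the share lay between 44.9% and 51.0%. With no filter on low values it was 1 (ICAM3), because 11422 probe sets raised to the floor on all 4 arrays, and so without any spread, entered the fit. Probe sets called over the whole table then numbered 1208 of 41091 (2.94%), against 14757 of 29669. The counts were 7815 of 15637 for gene means and 8885 of 19269 without x_at and s_at probe sets. No member's line difference changed sign. ITGB2 ranged from -3.66 to -0.78, the smaller value from the probe set left without x_at and s_at, and CD44 from 0.21 to 2.51. With the higher floor ITGAL was -2.28, ITGB2 -2.24, ICAM3 2.11 and SELPLG -1.26. With probe set means ITGA4 was 1.77, ITGB2 -1.26 and ITGB1 1.05, and without x_at and s_at probe sets ITGB1 was 2.30. ICAM2 passed the test with the higher floor (adjusted p = 0.0352) and with the trended prior (0.0313), at the same log2 difference of -0.55. Between states 0 members were called under any of 8 settings, and 0 of all fitted probe sets or gene means were called under them. In either subline 0 members reached 2-fold under any of 6 settings. Over all genes, the counts past 2-fold in Raji/R were 53 higher and 86 lower with the higher floor and 1841 and 729 with the pseudocount. In Jeko-1/R, where 44 were higher and 69 lower as reported, they were 10 and 16 with the higher floor, 89 and 134 with the pseudocount and 22 and 44 with probe set means. Values near the floor limit SELPLG and LFA-1 in the Jeko-1 lines, and values near or below it limit CD44 and ICAM3 in the Raji lines.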
